A study of Mus musculus with 6 samples.

Results

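Receptor tyrosine kinases are membrane proteins that bind a growth factor outside the cell and phosphorylate tyrosines inside it. Of the 48577 genes in the count files, 10 receptors known from lung epithelium were taken by their symbols: Ros1, the ErbB receptors Egfr, Erbb2, Erbb3 and Erbb4, the fibroblast growth factor receptors Fgfr1, Fgfr2 and Fgfr3, the hepatocyte growth factor receptor Met and the insulin-like growth factor receptor Igf1r. Ros1 was chosen by its measured values, a lower read count in tdTomato-positive than in tdTomato-negative libraries, so that difference is described here without a test. The other 9 were taken by name, with earlier results of these data known.

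RNA was sequenced from sorted lung cells of C57BL/6 mice that carry the Miwi2-tdTomato reporter, in which the fluorescent protein reports Piwil4, the gene of the Piwi protein MIWI2. Every cell was gated as CD45-, to leave out leukocytes, and as EpCAM+, to take epithelium, and the groups differ in the tdTomato gate alone. Each of 3 mice gave 1 tdTomato-negative and 1 tdTomato-positive library, 6 libraries in all. All groups carry the reporter, no treatment is named, and the age of the mice is not given in the sources used here. The labels call both fractions multiciliated cells, although no gate for cilia is named.

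The libraries held 5330584 to 6326395 reads in genes. Piwil4 had 227, 156 and 234 reads in the 3 negative libraries and 599, 605 and 701 in their positive partners, and tdTomato had 0 reads in each negative library and 37, 16 and 18 with the positive gate. Summed over 14 fixed markers of multiciliated cells, the level was 8541 to 9475 CPM (read counts scaled to library size with TMM factors) in the negative and 8315 to 9391 CPM in positive libraries. edgeR called 0 of the 14 without a mouse term and 3 with the mouse as a replicate block, Foxj1, Tppp3 and Cfap126, which rose 2.30-fold, 2.03-fold and 1.62-fold (adjusted p = 0.000129, 0.000729 and 0.0301 by edgeR). Without a mouse term, 9 of the 14 had a log2 fold change above 0 and 5 below it. Dnah12 was among the 5, at -0.37 (adjusted p = 0.423 by edgeR). The sum is mostly made of large axonemal genes such as Dnah12, Hydin and Dnah5. Markers of other epithelial cells were present too. The sum over 12 markers of alveolar type 2 cells, which secrete surfactant, was 6803 to 8221 CPM in negative against 589 to 1164 CPM in positive libraries. The sum over 8 markers of club cells, the airway secretory cells, was 4848 to 8222 CPM against 8698 to 21784 CPM, and edgeR called 0 of the 8 without a mouse term and 7 higher with the replicate block (1.36% of all genes were called higher with it). limma-voom called 0 and DESeq2 1. In bulk fractions, fewer cells of a type and less RNA per cell cannot be told apart. On the first principal component the positive library of mouse 1 lay far out, at 79.4 against -35.2 to 7.80 for the others.

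In general, a bound growth factor pairs receptor molecules, the paired kinases phosphorylate each other, and adaptor proteins then start the Ras-ERK and PI3K-AKT cascades. In the lung, ErbB receptors are known for repair of airway and alveolar epithelium, Fgfr2 for branching of the airways and upkeep of the alveolar epithelium, and Met for the growth of epithelial cells in answer to the mesenchymal factor HGF. Ros1 is an orphan-like receptor best known from fusion proteins in lung adenocarcinoma, for which the secreted protein NELL2 has been described as a ligand.

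The start regions of the receptor genes differ in base composition, read in windows of 250 bases before each start that the RefSeq promoter table (GRCm38.p6) lists. Sequence is shown for Ros1, the receptor with the widest gap between the fractions, and Igf1r, the most read one in the positive libraries. The listed start of Ros1 lies within the RefSeq gene, so that 154 of its 250 bases are inside the gene, and the 96 bases before the gene are shown. CpG dinucleotides are in capitals, both sequences run 5′ to 3′ on the gene's strand, and they stand for the minus strand of chr10:52195399-52195494 and the plus strand of chr7:67952007-67952256.
Ros1: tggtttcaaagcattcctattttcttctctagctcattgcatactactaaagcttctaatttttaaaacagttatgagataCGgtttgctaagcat
Igf1r: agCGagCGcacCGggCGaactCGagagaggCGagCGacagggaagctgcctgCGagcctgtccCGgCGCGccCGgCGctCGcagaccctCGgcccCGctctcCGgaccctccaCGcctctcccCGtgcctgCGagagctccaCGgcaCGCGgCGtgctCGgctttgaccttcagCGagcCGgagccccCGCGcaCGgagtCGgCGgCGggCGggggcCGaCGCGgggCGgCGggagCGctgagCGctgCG
The whole Ros1 window held 4 CpG at 41.6% GC, 1 of them in the bases shown, and the Igf1r window 42 CpG at 77.6% GC. The median over all 32851 windows of this length in the table was 6 CpG, and 99.1% of them held fewer than that of Igf1r. RefSeq windows matched 8 of the 10 receptors. Fgfr2 had 2 CpG, Egfr 11, Erbb4 12, Erbb2 16, Met 24, and the 2 start sites of Fgfr3 had 19 and 24. The windows of Met, Erbb4 and the second Fgfr3 start lie wholly within the RefSeq gene. The motif TATAAA, searched on both strands, was in none of these windows and in 12.4% of all windows. CCAAT, on either strand, was in those of Ros1, Erbb2 and the first start of Fgfr3, and in 33.8% of all windows. These matches describe letters in the windows and say nothing about binding.

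Ros1 (ENSMUSG00000019893, chromosome 10, 52045721 to 52195244, minus strand, GRCm38) was a scarce RNA found almost wholly in the negative libraries. Its reads numbered 17, 49 and 99 in negative libraries 1, 2 and 3, or 3.30, 9.41 and 19.3 CPM. The positive libraries held 3, 0 and 2 reads, or 0.507, 0 and 0.318 CPM, about the level that 3 reads give (0.475 to 0.507 CPM there). The groups did not overlap, and each mouse had the lower value in its positive library. Scaled by depth and pooled over the 3 mice, the 165 negative reads stood against 5 positive reads at a ratio of 39.5. No interval is given for it, since Ros1 was chosen by these values and amplified reads are not independent molecules. The fitted log2 fold change, positive over negative, was -5.19. Ros1 reached the expression filter through its negative libraries alone. The 2 pseudogenes annotated within the gene share no exon base with it and had no read.

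Among the negative libraries Ros1 itself varied 5.85-fold, with the lowest value in mouse 1 and the highest in mouse 3. Sftpc, which encodes surfactant protein C and defines alveolar type 2 cells, varied 1.07-fold among the same libraries. Lpcat1 of the same marker list was as steady, at 128, 128 and 134 CPM in negative libraries 1, 2 and 3. Other markers of the list varied more there. Etv5 was at 29.3, 37.1 and 55.0 CPM and Sftpd at 49.7, 61.9 and 74.1 CPM, both lowest in mouse 1 and highest in mouse 3. Lyz2 was at 3302, 1689 and 2629 CPM. The summed alveolar type 2 markers were 8221, 6803 and 8219 CPM in negative libraries 1, 2 and 3. In the positive libraries the sums were 922, 1164 and 589 CPM. All 12 markers of that list were lower in every positive library than in any negative one, as were 9.02% of all genes tested. edgeR called 8 of the 12, all lower, where 0.577% of all genes were called lower. Of the 6 basal cell markers, summed at 10.1 to 17.9 CPM in negative against 1.01 to 2.22 CPM in positive libraries, Trp63 had no read in the positive libraries and Krt14 none in the negative ones. The part of either cell type in the Ros1 difference was not tested.

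**Figure D1:**
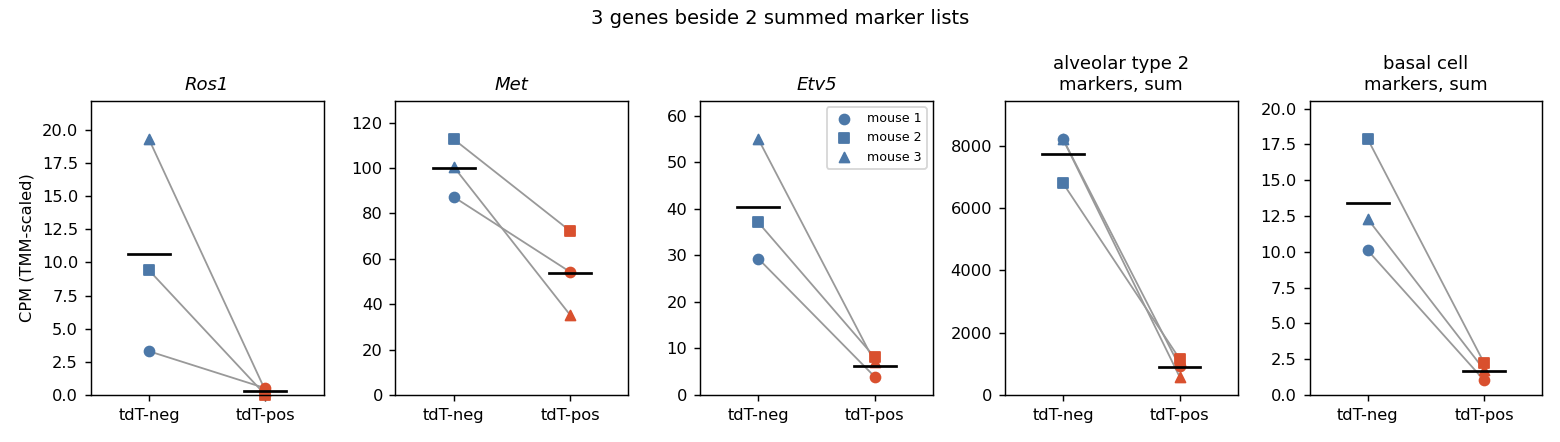
CPM (vertical axes, from 0) of Ros1, Met and Etv5 and the summed CPM of 12 alveolar type 2 markers, which include Etv5, and of 6 basal cell markers, in tdTomato-negative (tdT-neg, blue) and tdTomato-positive (tdT-pos, orange-red) libraries. Grey lines join the libraries of 1 mouse and black bars are group means (n = 3); in all 5 panels each mouse is lower in its positive library, while Ros1 spreads from 3.30 to 19.3 CPM among the negative ones.

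Over the 6 libraries, the 5 genes whose log2 CPM profile lay closest to that of Ros1 were Slc1a3, Trp63, Rnf144a, Gdnf and Dram1, of 11182 genes searched. The root mean square difference of the centred profiles was 0.547 for Slc1a3, a glutamate transporter gene, and 0.798 for Dram1, a lysosomal membrane protein gene. Dram1, the most read of the 5, was at 124, 185 and 177 CPM against 11.1 to 17.2 CPM, and Gdnf, the gene of a neurotrophic factor, had 18, 14 and 24 reads against 1, 0 and 0. Slc1a3 was at 10.3 ± 2.81 CPM in negative against 0.596 ± 0.403 CPM in positive libraries (n = 3 each, ± SD). The likeness is a description over 6 libraries that share this contrast.

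Of the 9 receptors other than Ros1, 8 passed the expression filter and Erbb4 did not. Without a mouse term, edgeR's quasi-likelihood test (Benjamini-Hochberg adjusted p under 0.05 over 13175 genes) called 0 of the 8. Over all genes tested 0.622% were called, 0.0455% higher and 0.577% lower (6 and 76 genes, or 22 and 54 with library sizes unscaled). At an unadjusted p under 0.05 there was 1, Met, against 10.7% of all genes. DESeq2 and limma-voom called 0 of them. The CPM of the groups did not overlap for 3 of the 8, Egfr and Erbb3 above and Met below, against 17.3% of all genes (8.29% above and 9.02% below). The labels give both libraries of a number to the same mouse, and with the mouse as a replicate block 1 of the 8 was called, Met, where 3.15% of all genes were called (1.36% higher and 1.79% lower). Of the 8, 6 had a log2 fold change above 0, as did 6943 of the 13175 genes. The median of the 8 was 0.22, beside 0.03 for all genes. Scaling by library size alone moved these medians to 0.48 and 0.29, so the receptors are read against the other genes in what follows. Without the positive library of mouse 1, which lay far out, edgeR again called 0 of them, with log2 fold changes of -0.90 for Met and -0.32 for Fgfr2, and that of Ros1 was -5.88.

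**Figure D2:**
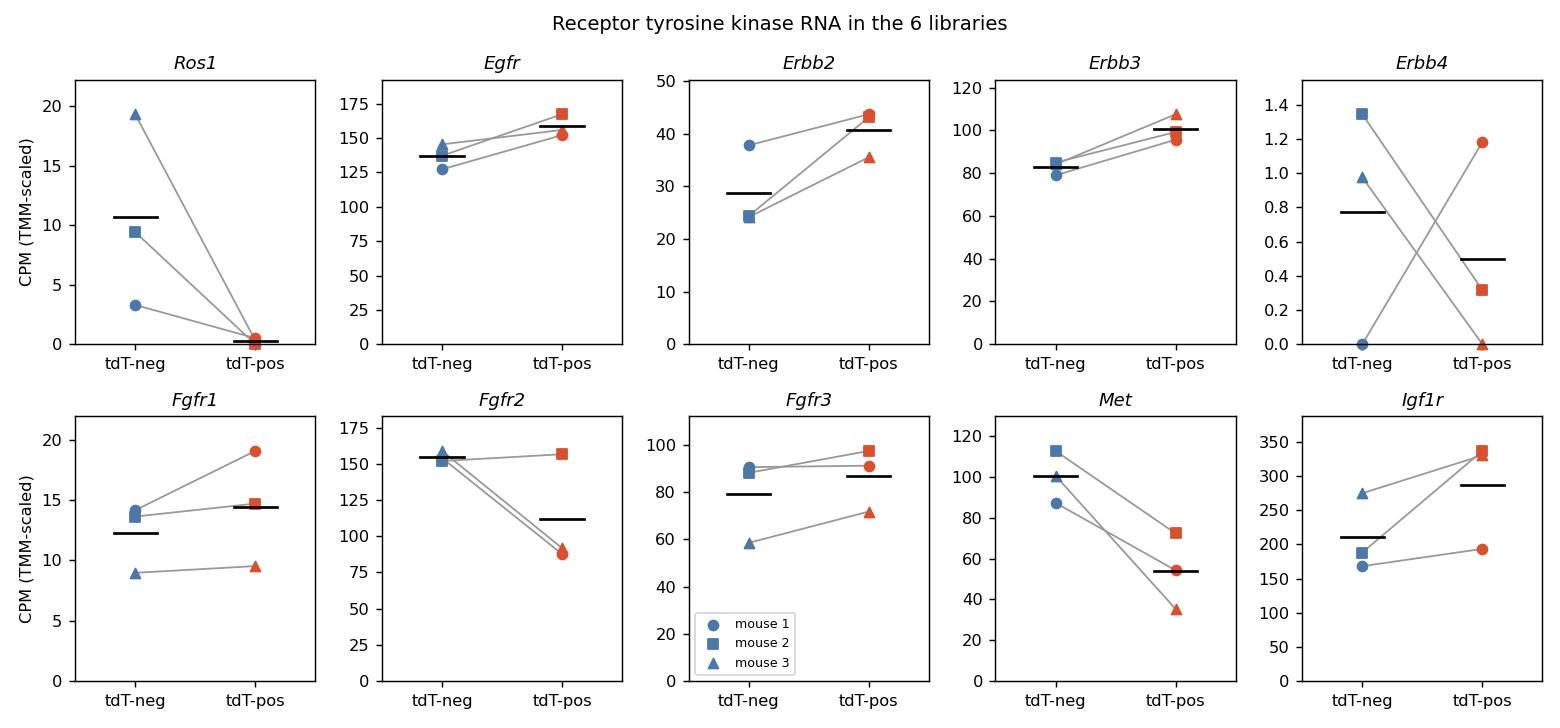
CPM (vertical axes, each from 0 and with its own range) of the 10 receptors in the tdTomato-negative (tdT-neg, blue) and tdTomato-positive (tdT-pos, orange-red) libraries. Symbols mark the 3 mice, grey lines join the libraries of 1 mouse, and black bars are means; Ros1 and Met are lower in the positive library of each mouse, and Egfr, Erbb2, Erbb3, Fgfr1, Fgfr3 and Igf1r higher.

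Met (ENSMUSG00000009376, chromosome 6, 17463800 to 17573980), the receptor of hepatocyte growth factor, was lower in the positive library of each mouse. It was at 87.3, 113 and 101 CPM in negative against 54.2, 72.3 and 35.3 CPM in positive libraries of mice 1, 2 and 3. Every positive value lay below every negative one, with the widest step in mouse 3. The log2 fold change was -0.89 ± 0.250 (SE; 95% interval -1.44 to -0.34; adjusted p = 0.201 by edgeR). With the replicate block Met fell by 0.94 ± 0.198 on the log2 scale (SE; adjusted p = 0.0121 by edgeR), lower in 3 of 3 mice. Without mouse 3 the blocked fit gave a log2 fold change of -0.66 and the call was lost (edgeR adjusted p = 0.425). The alveolar type 2 markers given above were lower in the same libraries, and their part in the Met difference was not tested. Hgf, its ligand, is made by mesenchymal cells, and had 5, 6 and 2 reads in the negative libraries and 0 in each positive one, too few for the expression filter. The sum of 8 mesenchymal markers was 17.4 to 64.4 CPM in negative against 1.59 to 32.9 CPM in positive libraries, ranges that overlap. Lum, 1 of these markers, had 0, 1 and 0 reads in negative libraries and 0 in each positive one.

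Of the 4 ErbB receptors, 3 were higher in each positive library than in its negative partner, none past the test. Egfr (ENSMUSG00000020122, chromosome 11, 16752203 to 16918158) binds EGF, TGFα, amphiregulin and HB-EGF. It was at 127, 137 and 145 CPM in negative against 152, 167 and 156 CPM in positive libraries, without overlap. Its log2 fold change was 0.21 ± 0.154 (SE; adjusted p = 0.649 by edgeR), with a fold of 0.918 to 1.47 at 95%. Erbb3 (ENSMUSG00000018166, chromosome 10, 128567523 to 128589652), a neuregulin receptor whose own kinase is nearly inactive, was at 79.0, 84.9 and 84.0 CPM against 95.6, 99.2 and 108 CPM, again without overlap. Its fold lay between 0.953 and 1.56 at 95% (log2 fold change 0.29 ± 0.162, SE; edgeR adjusted p = 0.567). Neither the Egfr nor the Erbb3 difference passed the test over all genes.

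Erbb2 (ENSMUSG00000062312, chromosome 11, 98412470 to 98437716) has no known ligand and acts as the partner of the other ErbB receptors. Its level was 37.8, 24.4 and 24.2 CPM in negative against 43.7, 43.2 and 35.6 CPM in positive libraries. The negative library of mouse 1 lay above the positive library of mouse 3, so the groups overlapped, while each mouse was higher in its positive library. The log2 fold change was 0.50 ± 0.248 (SE; adjusted p = 0.510 by edgeR), with a fold of 0.972 to 2.07 at 95%. Its exons share 9 bases with Mien1, a gene of the opposite strand with 15 to 36 reads. Erbb4, the second neuregulin receptor, was barely detected: 0, 7 and 5 reads among the negative and 7, 2 and 0 among the positive libraries. A difference in Erbb4 was not detectable at this depth.

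The fitted fold changes of the fibroblast growth factor receptors differed in sign, none past the test over the 3 mice. Fgfr2 (ENSMUSG00000030849, chromosome 7, 130162451 to 130266808 in RefSeq), whose epithelial isoform binds FGF7 and FGF10, was steady among the negative libraries at 154, 152 and 159 CPM. The positive libraries of mice 1, 2 and 3 had 87.7, 157 and 91.8 CPM. Mice 1 and 3 were thus lower and mouse 2 was not. Over the 3 mice the log2 fold change was -0.47 ± 0.223 (SE; adjusted p = 0.495 by edgeR, and 0.148 with the replicate block). Without mouse 2, the mouse that showed no fall, the blocked log2 fold change was -0.80 (edgeR adjusted p = 0.00821), a setting chosen after seeing the data. Fgfr2 was not called by the blocked fit without mouse 1 or mouse 3. The GENCODE model of the gene shares 314 exon bases with Ctbp2, which had up to 363 reads. The counts are per gene, so the epithelial isoform and the other isoform cannot be told apart.

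Fgfr3 (ENSMUSG00000054252, chromosome 5, 33721674 to 33737068), a receptor of FGF9 and FGF18 among others, was at 90.6, 88.2 and 58.5 CPM against 91.2, 97.5 and 71.8 CPM. Mouse 3 was the lowest in both fractions, and the groups overlapped. Its log2 fold change was 0.13 ± 0.215 (SE; adjusted p = 0.856 by edgeR). Leaving out negative library 3 gave -0.05. Its count is uncertain for reads that also match the pseudogene Fgfr3-ps, which had 0 reads in each library. The gene G630022F23Rik, which shares 998 exon bases with Fgfr3 on the opposite strand, had 0 to 3 reads. Fgfr1 (ENSMUSG00000031565, chromosome 8, 25513654 to 25575718), known mainly from mesenchyme, was low, at 14.2, 13.6 and 8.97 CPM in negative against 19.1, 14.7 and 9.53 CPM in positive libraries. Here too mouse 3 was the lowest in both fractions. Its log2 fold change was 0.24 ± 0.353 (SE; adjusted p = 0.844 by edgeR). Leaving out positive library 1 gave -0.01. The antisense gene Gm16159, which shares 164 exon bases with Fgfr1, had 1 to 3 reads.

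Igf1r (ENSMUSG00000005533, chromosome 7, 67952827 to 68233668), the receptor of IGF1 and IGF2, had the most reads of the 10. Its level was 168, 188 and 275 CPM in negative against 194, 337 and 331 CPM in positive libraries. Each mouse was higher in its positive library, most so mouse 2, yet the groups overlapped because mouse 3 was already high in its negative library. The log2 fold change was 0.45 ± 0.246 (SE; adjusted p = 0.556 by edgeR, and 0.151 with the replicate block), with a fold of 0.937 to 1.99 at 95%.

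**Figure D3:**
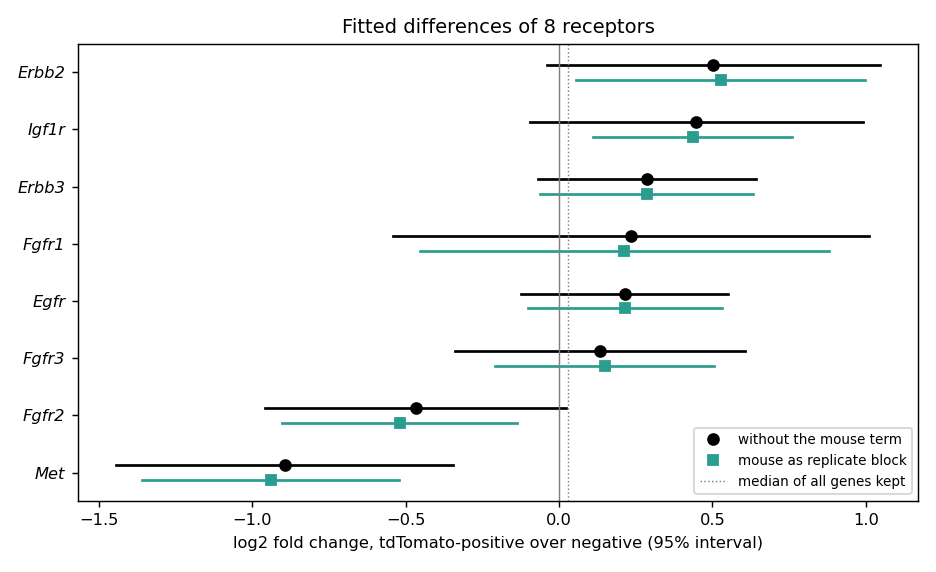
Fitted log2 fold changes (horizontal axis, positive over negative libraries) of the 8 receptors tested, with 95% intervals, from edgeR without a mouse term (black circles) and with the mouse as a replicate block (green squares). The dotted line is the median of all genes kept, 0.03; without a mouse term Met lies lowest at -0.89 and Erbb2 highest at 0.50.

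Levels of different receptors are compared per kilobase of exon, with lengths from GENCODE M21, which may differ from the annotation the authors counted on. In the negative libraries Fgfr2 had the highest mean, 15.0 ± 0.347 CPM per kilobase (SD, n = 3), and did not overlap Erbb3, the next by mean, at 13.7 ± 0.534 CPM per kilobase (SD, n = 3). In the negative library of mouse 3, however, Igf1r at 16.4 CPM per kilobase lay above Fgfr2 at 15.4 CPM per kilobase. Met, Igf1r, Egfr and Fgfr3 followed at means of 13.1, 12.5, 12.1 and 11.0 CPM per kilobase. No neighbours from Erbb3 down to Fgfr3 in that order were without overlap. Erbb2 came next at 5.53 ± 1.5 CPM per kilobase, then Ros1 at 1.37 ± 1.04 CPM per kilobase and Fgfr1 at 1.24 ± 0.289 CPM per kilobase (n = 3 each, ± SD), the last 2 overlapping.

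In the positive libraries Igf1r led at 17.1 ± 4.83 CPM per kilobase and Erbb3 followed at 16.7 ± 1.02 CPM per kilobase (n = 3 each, ± SD), overlapping each other. Egfr, Fgfr3 and Fgfr2 had means of 14.0, 12.1 and 10.8 CPM per kilobase. Met went from the third place to the seventh, at 7.02 ± 2.41 CPM per kilobase (SD, n = 3), where it overlapped Erbb2. Ros1 came last, at 0.0353 ± 0.0329 CPM per kilobase (SD, n = 3), and did not stand apart from Erbb4. The 4 ErbB receptors together held 31.6, 31.0 and 31.5 CPM per kilobase in the negative and 37.8, 39.6 and 38.5 CPM per kilobase in the positive libraries of mice 1, 2 and 3. That sum varied little among mice, and its groups did not overlap, as was so for 17.3% of all genes tested (8.29% above). It is mostly made of Egfr and Erbb3, neither of which passed the test, and the sum itself was not tested. All 10 receptors together held 85.6 ± 2.87 CPM per kilobase in the negative and 87.2 ± 10.6 CPM per kilobase in the positive libraries (n = 3 each, ± SD), with overlap. The share of the ErbB receptors in that total was 36.7% ± 1.45 and 44.6% ± 4.17, and the share of Met 15.2% ± 1.61 and 7.97% ± 2.11 (n = 3 each, ± SD).

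**Figure D4:**
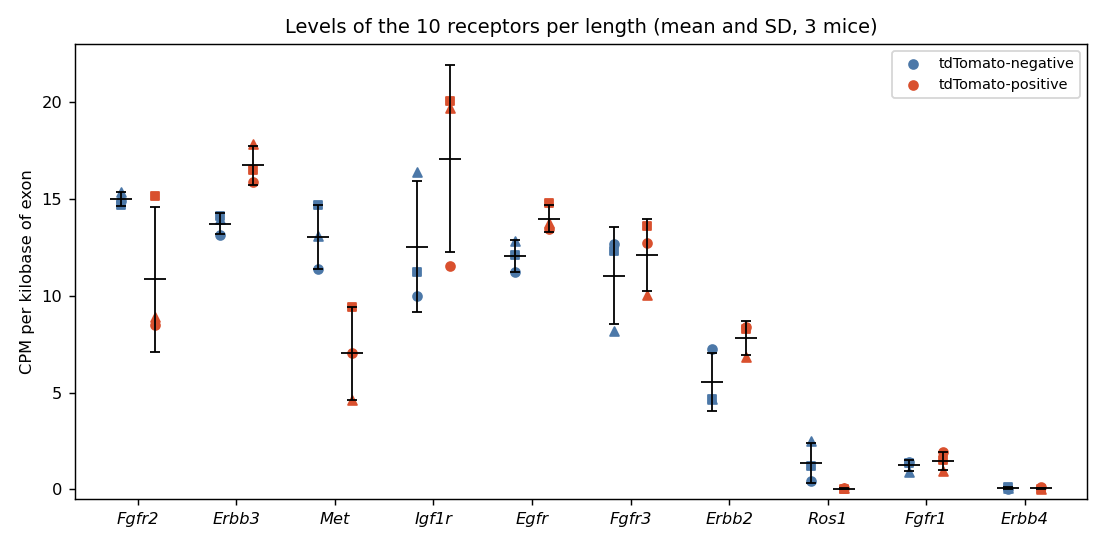
Level of each receptor in CPM per kilobase of exon (vertical axis, linear) in tdTomato-negative (blue) and tdTomato-positive (orange-red) libraries, ordered by the negative mean. Symbols are the 3 mice and bars give mean and SD; Fgfr2 and Met lie lower on average and Erbb3 and Igf1r higher in the positive libraries, and Ros1, Fgfr1 and Erbb4 stay near the bottom in both.

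Of 48 other receptor tyrosine kinases, 19 passed the filter. edgeR called 0 of the 19 (5 had an unadjusted p under 0.05, against 10.7% of all genes). The replicate block, DESeq2 and limma-voom also called 0 of the 19. Their median log2 fold change was 0.19, against 0.22 for the 8 receptors above. Per kilobase the most abundant of them was Epha2, an ephrin receptor, at 12.4 ± 4.64 CPM per kilobase in the negative and 19.2 ± 9.44 CPM per kilobase in the positive libraries (n = 3 each, ± SD). The insulin receptor Insr was at 11.0 ± 0.456 and 12.1 ± 0.680 CPM per kilobase and Lmtk2 at 10.1 ± 0.717 and 11.6 ± 2.91 CPM per kilobase (n = 3 each, ± SD). Egfr and Fgfr3 lay at 12.1 and 11.0 CPM per kilobase in the same negative libraries. By p, the leading ones were the Wnt receptors Ryk and Ptk7, with log2 fold changes of 0.74 and 0.74 (edgeR adjusted p = 0.354 and 0.432), and Mertk, which takes part in the uptake of dead cells, with -1.78 (edgeR adjusted p = 0.424). Mertk is also expressed by macrophages, and the sum of 10 leukocyte markers was 179 to 1298 CPM in negative against 34.6 to 215 CPM in positive libraries, Ptprc, the CD45 gene, not being at 0 in any of them. Lyz1, a lysozyme gene, made up most of the negative sums, at 307, 1185 and 157 CPM against 22.5, 178 and 11.8 CPM. The other 9 markers summed to 83.6, 113 and 22.2 CPM against 27.5, 37.0 and 22.9 CPM, with no lower value in the positive library of mouse 3.

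Without a mouse term no ligand passed the test between the fractions, and with the replicate block 1 did. Of 22 listed, 12 passed the filter, and edgeR, DESeq2 and limma-voom called 0. In edgeR 1 had an unadjusted p under 0.05, against 10.7% of all genes. The median log2 fold change of the 12 was -0.14. The ErbB ligand Tgfa was at 45.8, 40.0 and 33.0 CPM in negative against 60.8, 66.6 and 41.0 CPM in positive libraries (log2 fold change 0.50; edgeR adjusted p = 0.491). Hbegf, another Egfr ligand, was the 1 ligand called with the replicate block. It was at 129, 38.2 and 130 CPM in negative against 166, 72.3 and 230.1 CPM in positive libraries, higher within each mouse and low in both fractions of mouse 2. Its blocked log2 fold change was 0.70 ± 0.166 (SE; adjusted p = 0.0267 by edgeR, against 0.739 without the block), and the call was lost without mouse 2 or mouse 3 (edgeR adjusted p = 0.0537 and 0.483). Hbegf was named after its values were seen. Ereg, a further Egfr ligand, and Igf1, a ligand of Igf1r, were scarce, with 0 to 54 and 0 to 34 reads, and log2 fold changes of -1.72 and -2.58 (edgeR adjusted p = 0.564 and 0.436). Igf1 is typically made by macrophages and mesenchymal cells, and the leukocyte markers are given above. Their part in the values of Mertk and Igf1 was not tested.

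Of 19 genes that bind or process the ligands, 16 passed the filter. Their median log2 fold change was 0.49, beside 0.03 for all genes. Of the 16, 12 lay above 0, against 6943 of the 13175 genes. edgeR called 0 of the 16 (6 at an unadjusted p under 0.05, against 10.7% of all genes). limma-voom called 0, DESeq2 1 and the replicate block 2, both higher, where 1.36% of all genes were called higher with the block. Igfbp2, which binds insulin-like growth factors, was at 5.63, 3.07 and 4.87 CPM in negative against 14.7, 10.1 and 19.1 CPM in positive libraries, without overlap. Its log2 fold change was 1.69 ± 0.398 (SE; adjusted p = 0.113 by edgeR, and 0.0175 with the replicate block). The abundant binding protein gene Igfbp5 was at 844, 909 and 754 CPM against 969.6, 1692 and 1116 CPM, also without overlap. With the replicate block it rose by a log2 fold change of 0.55 ± 0.144 (SE; adjusted p = 0.0432 by edgeR, against 0.335 without the block). Both blocked calls were lost without mouse 2 or mouse 3, with adjusted p of 0.0503 and 0.399 for Igfbp2 and 0.113 and 0.514 for Igfbp5 in edgeR. Igf2r, which clears IGF2, had a log2 fold change of 0.54 ± 0.166 (SE; adjusted p = 0.256 by edgeR).

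Of 28 genes whose proteins relay the signal, 27 passed the filter. In edgeR 2 had an unadjusted p under 0.05, against 10.7% of all genes. edgeR, DESeq2, limma-voom and the replicate block each called 0 of the 27. Their log2 fold changes spanned -0.48 to 0.73 with a median of 0.12. Mapk3, which encodes the kinase ERK1, was at 57.4, 52.6 and 48.6 CPM against 68.2, 78.3 and 66.2 CPM, higher in each mouse (log2 fold change 0.42; edgeR adjusted p = 0.439). The adaptor gene Gab1, which serves Met and Egfr, had 0.36 (edgeR adjusted p = 0.463) and Hras 0.73 (edgeR adjusted p = 0.496).

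Of 20 negative regulators, 19 passed the filter. In edgeR 2 had an unadjusted p under 0.05, against 10.7% of all genes. edgeR, DESeq2, limma-voom and the replicate block each called 0 of the 19. The median log2 fold change was 0.17. Dusp6, a phosphatase of ERK whose own RNA is induced by ERK, was at 72.0, 60.7 and 70.4 CPM in negative against 91.2, 92.9 and 111 CPM in positive libraries. These groups did not overlap, with a log2 fold change of 0.54 ± 0.176 (SE; adjusted p = 0.297 by edgeR, and 0.107 with the replicate block). Rnf41, a ubiquitin ligase that acts on Erbb3, had 0.52 (edgeR adjusted p = 0.458), and Lrig1, a membrane protein that lowers ErbB receptors and Met, 0.42 (edgeR adjusted p = 0.545).

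Among 9 transcriptional targets of receptor signalling, 7 passed the filter, with a median log2 fold change of 0.35. Of these, 1 fell and none rose in edgeR's test without a mouse term, where 0.577% of all genes fell and 0.0455% rose. With the replicate block 1 fell and 2 rose, where 1.79% of all genes fell and 1.36% rose. Etv5, an ETS factor downstream of FGF receptors that alveolar type 2 cells express as well, was at 29.3, 37.1 and 55.0 CPM in negative against 3.88, 8.07 and 6.99 CPM in positive libraries. It fell by 2.67 ± 0.355 on the log2 scale (SE; adjusted p = 0.00575 by edgeR), lower in 3 of 3 mice. Over the runs without a library or mouse the log2 fold change was -2.94 to -2.39. Without mouse 2 or mouse 3 the call was lost in the fit without a mouse term (edgeR adjusted p = 0.0907 and 0.128), and it was kept with the replicate block (8.06e-06 and 0.0385). Etv5 is a member of the alveolar type 2 list given above, whose other 11 markers were lower as well, and the part of those cells was not tested. Other targets had positive fold changes. Ccnd1, which encodes cyclin D1, was at 29.9, 20.4 and 25.0 CPM against 63.3, 60.6 and 41.1 CPM, without overlap.

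The log2 fold change of Ccnd1 was 1.13 ± 0.249 (SE; adjusted p = 0.0768 by edgeR). With the replicate block it rose by 1.12 ± 0.224 on the log2 scale (SE; adjusted p = 0.00852 by edgeR), and DESeq2 called it without the block (adjusted p = 0.00716). The blocked call was lost without mouse 3 (edgeR adjusted p = 0.137). The immediate early gene Egr1, named after its values were seen, was higher within each mouse by 0.61, 0.49 and 0.52 on the log2 scale. With the block its log2 fold change was 0.54 ± 0.123 (SE; adjusted p = 0.0208 by edgeR, against 0.554 without the block), and the call was lost without mouse 1 or mouse 3 (edgeR adjusted p = 0.178 and 0.457). Ier3, another early gene, had a log2 fold change of 0.73 (adjusted p = 0.464 in edgeR).

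**Figure D5:**
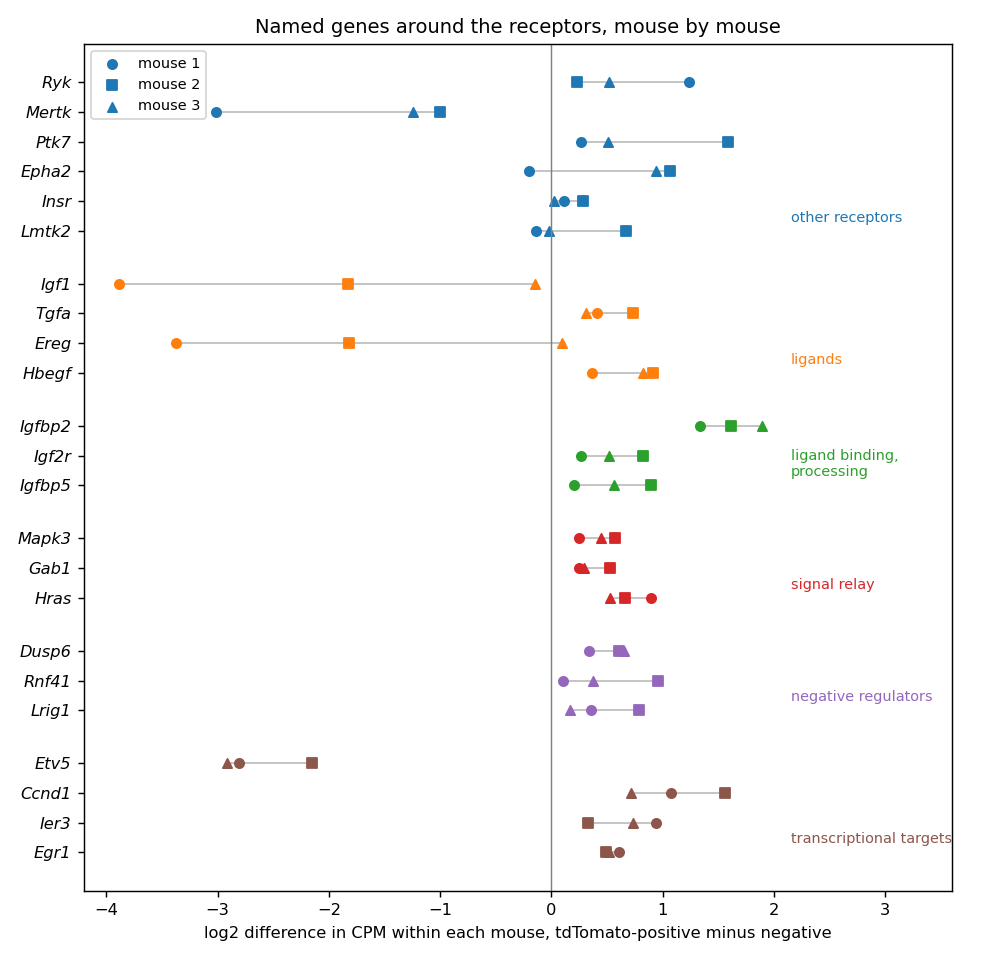
Log2 difference in CPM (prior count of 2) between the tdTomato-positive and tdTomato-negative library of each mouse (horizontal axis) for 23 named genes around the receptors, coloured by list, with symbols for the 3 mice. Etv5, Mertk and Igf1 lie left of 0 in all 3 mice, and Epha2, Lmtk2 and Ereg differ in side between mice. All other genes shown, among them Igfbp2, Ccnd1, Dusp6 and Egr1, lie right of 0 in all 3.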

How the data were processed

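Per the labels' protocols, cDNA of 6 sorted fractions was amplified (Ovation V2 kit) before TruSeq Nano library preparation. The authors deposited unnormalized counts of reads for each gene symbol. Tools named in the submitters' processing notes are STAR 2.4.2a, cutadapt 1.7.1, HTSeq, FastQC and DESeq2, with the builds GRCm38.p4 and mm10. The HTSeq strand setting is not given in the sources used here; antisense genes therefore cannot be told apart. The 5 summary rows that end each file entered no library size or test. Reads in no gene were 41.0% to 49.4% of counted rows, ambiguous ones 1.31% to 1.99% and those aligned to several places 8.26% to 12.0%.

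CPM with TMM factors and log2 fold changes came from edgeR 4.0.16 in R 4.3.3 (filterByExpr, count minimum 10, 13175 genes kept; quasi-likelihood test, two-sided, robust). Standard errors are the fold change divided by the root of F. The main model has no mouse term and so leaves the pairing by mouse unused. The labels give both libraries of a number to 1 mouse, and their deviations from the group means correlated at 0.263, 0.254 and 0.346 across genes. Alternatives were RLE factors, library size only, other filters, DESeq2 1.42.0, limma-voom (limma 3.58.1), the replicate block, and leaving out each library or mouse. The blocked fit without each mouse was added after seeing the data. The scripts were tested on simulated data.

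The members and gene lists were chosen with earlier results of these data known. Named genes were all members, called genes and up to 3 with the smallest p per list, the 3 most abundant other receptors per kilobase, the 5 profiles nearest to Ros1 (average log2 CPM of at least 1, no Gm or Rik symbol) and label checks; others are said to be chosen after their values were seen. Sftpc, Trp63, Krt14 and Ptprc were named as defining markers, and other marker genes after their values were seen. Lengths and positions come from GENCODE M21 on GRCm38, and windows before gene starts from RefSeq. The leukocyte sum without its most abundant marker was added after seeing the data.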

Additional observations from a re-analysis of the deposited data

How the results depend on the processing

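Among the 8 receptors tested other than Ros1, 124 of 128 values under the other settings fixed at the start kept their direction and their side of the threshold. The exceptions were Met, called with no expression filter and with the replicate block, and 2 changes of sign of near-level receptors: Fgfr1 at -0.0138 without the positive library of mouse 1 (up to 0.464 over such runs) and Fgfr3 at -0.0478 without the negative library of mouse 3 (up to 0.256). Lmtk2 changed sign without mouse 2 (-0.0805, and -0.0796 with the replicate block) or its positive library (-0.0285), its values over all runs without a library or mouse reaching 0.33. The log2 fold change of Ros1 was -6.38 to -4.39 without a library or mouse, and a stricter filter of 30 reads left Ros1 out.

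Over all genes, 82 passed, against 413 with no expression filter, 247 by DESeq2, 415 with the replicate block and 22 to 113 without a library or mouse. The blocked fit without mouse 1, 2 or 3 gave 633, 380 and 59. With library size alone 22 of 76 calls were higher, with no filter 167 of 413, by DESeq2 58 of 247 and with the block 179 of 415, against 6 of 82. Of the 9 receptors 1 was called with no expression filter and 1 with the replicate block, and 0 to 2 without a library or mouse, where Met and, in the blocked fit without mouse 2, Fgfr2 were called. Among other receptor tyrosine kinases 2 were called with no filter (Mertk and Ror1) and 0 to 2 over the runs without a library or mouse. Of the ligands 1 was called with the replicate block and 0 to 1 without a library or mouse. Of the ligand-binding and ligand-processing genes 2 were called with no filter, 1 by DESeq2, 2 with the replicate block and 0 to 4 without a library or mouse. Of the transcriptional targets 2 were called with library size only, 2 with no filter, 2 by DESeq2, 3 with the replicate block and 0 to 3 without a library or mouse. The cause of these changes was not tested. Signal relay genes and negative regulators had 0 calls under every alternative run. Pairing by mouse changed no other call of a named gene than those given beside the results, apart from Rnf144a, Ptprc and Lyz1. Their edgeR adjusted p were 0.0231, 0.00502 and 1.73e-08 with the replicate block, and 0.0588, 0.410 and 0.567 without it. Leaving out 1 mouse leaves 2 libraries a group. Erbb4 in all libraries and Ros1 in the positive ones sit at or near the floor of 3 reads.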
